A study of Rattus rattus with 8 samples.

Results

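Butyrate, a short-chain fatty acid made by colonic bacteria, is the main fuel of colonocytes. It enters the cell with a proton through monocarboxylate transporters or with sodium through Slc5a8, is sensed at the surface by G protein-coupled receptors, and is activated to butyryl-CoA, oxidised to acetyl-CoA in mitochondria and partly turned into ketone bodies. The genes described here follow that route. They are the transporter genes Slc16a1, Slc16a3 and Slc5a8, the transporter chaperone gene Bsg, the receptor genes Ffar2 and Hcar2, the acyl-CoA synthetase gene Acsm3 and the ketone body enzyme gene Bdh1. They were chosen by symbol, and 6 of the 8 had a row among the 11762 genes of the deposited table. Hcar2 and Acsm3 were not analysed here. All 6 passed the filter on low values.

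RNA was sequenced from epithelium shaken off the proximal colon of WKY and SHR rats, 4 libraries each. SHR is the inbred spontaneously hypertensive rat, and WKY, the Wistar-Kyoto rat, is its usual normotensive control. No treatment, age or sex is given for either strain. Whether the libraries of a strain come from different animals is not in the labels, and the p-values below rest on library-to-library spread, which may be technical. The values are taken as FPKM (fragments per unit of transcript length and of library size), so levels of different genes can be set beside each other, and read depth is unknown. None of the 5 markers of B and plasma cells had a row. In bulk tissue fewer cells of a type and less RNA per cell cannot be told apart.

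All 9 defining epithelial markers were present, Epcam at 1519.73 to 1698.96 FPKM. Of the 9, Krt18 was called lower in SHR (log2 fold change -0.50, adjusted p = 0.0121), Cdx1 higher (0.46, adjusted p = 0.0303), and 7 did not pass. Krt19 was among the latter (adjusted p = 0.0949), at 3121.37 to 4121.16 FPKM in WKY and 2570.62 to 3115.66 FPKM in SHR. Of 10 surface colonocyte markers, 1 was called higher, Muc13 (0.50, adjusted p = 0.0275), and 0 lower. Car4 and Krt20 lay above and Aqp8 below WKY in all SHR libraries without passing. Such a lack of overlap, in either direction, was found for 16.1% of all tested genes. Of 7 goblet markers 4 were called lower and 0 higher, with sums of 3872 to 5315 FPKM in WKY and 2337 to 3173 FPKM in SHR. Of 5 tested crypt and dividing-cell markers 2 were called lower and 0 higher, and the sums over 6 such markers overlapped, at 125.7 to 196.7 FPKM in WKY and 92.9 to 131.6 FPKM in SHR. These shares stand beside 7.48% lower and 3.4% higher over all 11069 tested genes (limma on log2(FPKM + 1), Benjamini-Hochberg adjusted p under 0.05).

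Bdh1, the mitochondrial enzyme that interconverts the ketone bodies acetoacetate and beta-hydroxybutyrate, was the only one of the 6 genes to pass the test between strains. Its mean level was 1.91-fold higher in WKY than in SHR. The other 5, which serve uptake and sensing, did not pass. Over all tested genes 10.9% passed in either direction, 7.48% lower and 3.4% higher in SHR, so 1 call among 6 genes is not a result about the group. The result is that of Bdh1 itself. In the same libraries 4 of 7 goblet and 2 of 5 crypt and dividing-cell markers were lower. So were 4 of 6 T and natural killer cell and 2 of 7 enteroendocrine markers, with 0 higher in each of these lists. Of 10 surface colonocyte markers 1 was higher and 0 lower, with a median log2 fold change of 0.25, beside -0.07 for all tested genes. Of 3 tested myeloid markers 1 was higher and 0 lower. The part of any of these cells in the Bdh1 values was not tested.

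**Figure D1:**
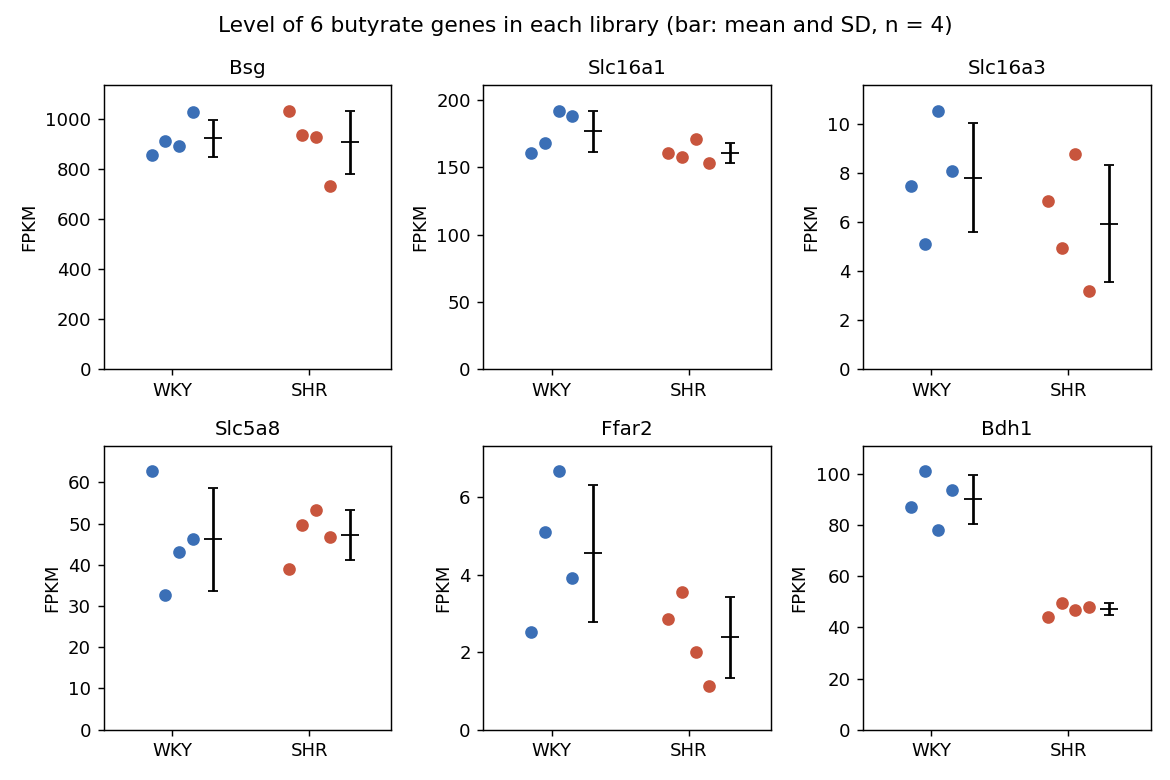
FPKM of the 6 genes in each library, with points for the 4 WKY (blue) and 4 SHR (red) libraries and bars for the mean and SD; every axis starts at 0. The strains are apart for Bdh1, with the lowest WKY library at 78.21 and the highest SHR library at 49.67 FPKM, and overlap for the other 5 genes.

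The order of the levels was Bsg, Slc16a1, Bdh1, Slc5a8, Slc16a3 and Ffar2 by the mean of all libraries, which ran from 913 FPKM for Bsg to 3.47 FPKM for Ffar2. Bsg stood above 98.7% of the tested genes, Slc16a1 above 94.2%, and Ffar2 above 16.4%. Neighbours in this order were apart over all 8 libraries for Bsg and Slc16a1, for Slc16a1 and Bdh1, and for Slc5a8 and Slc16a3. Bdh1 and Slc5a8 overlapped. Bdh1 was above Slc5a8 in 4 of 4 WKY libraries and in 3 of 4 SHR libraries, where their means were 47.1 ± 2.29 and 47.2 ± 6.05 FPKM (SD, n = 4). Slc16a3 and Ffar2 overlapped in range, with Slc16a3 the higher in each of the 8 libraries.

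Slc16a1 encodes MCT1, the main proton-coupled carrier of butyrate and lactate in colonocytes. Its level was 160.46, 167.81, 191.64 and 187.85 FPKM in WKY replicates 1 to 4, against 160.58, 157.57, 170.99 and 153.59 FPKM in SHR replicates 1 to 4. SHR replicates 2 and 4 lay below all WKY libraries, and the other SHR libraries lay within the WKY range. The log2 fold change, SHR over WKY, was -0.14 ± 0.10 (SE, limma adjusted p = 0.419), with a 95% interval from -0.36 to 0.09. Slc16a1 was steady among libraries of a strain: its within-strain SD of 0.099 on the log2 scale exceeded that of only 6.97% of the tested genes. Red blood cells also carry MCT1 and basigin, and globin transcripts were highest in the library with the most Slc16a1, WKY replicate 3 (summed 1106 FPKM, the other libraries 46.59 to 326.9 FPKM). WKY replicate 4, at 326.9 FPKM of globin, had nearly as much Slc16a1, and the part of red blood cells in these values was not tested. Without WKY replicate 3 the log2 fold change of Slc16a1 was -0.10 (adjusted p = 0.555).

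Slc16a3 encodes MCT4, a related carrier known for lactate export from glycolytic cells. It was at 7.48, 5.12, 10.56 and 8.11 FPKM in WKY replicates 1 to 4, against 6.86, 4.94, 8.78 and 3.2 FPKM in SHR replicates 1 to 4. The strains overlapped, with the highest value in WKY replicate 3 and the lowest in SHR replicate 4. Its log2 fold change of -0.38 ± 0.26 (SE, adjusted p = 0.379) had a wide interval, from -0.96 to 0.20. Slc16a1 exceeded Slc16a3 in every library, by 18.1 to 32.8 times in WKY and by 19.5 to 48 times in SHR.

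Bsg encodes basigin (CD147), the glycoprotein that brings MCT1 and MCT4 to the plasma membrane. It was at 856.22, 908.91, 889.82 and 1025.95 FPKM in WKY replicates 1 to 4, against 1030.78, 933.96, 924.88 and 730.09 FPKM in SHR replicates 1 to 4. Both the highest and the lowest of the 8 values were SHR libraries. For Bsg the log2 fold change was -0.03 ± 0.13 (SE, adjusted p = 0.896) with an interval from -0.31 to 0.25, and its sign turned under another scaling (0.17 after quantile normalization, 0.02 after centring each library on its median gene). The Bsg level was 5.21 ± 0.384 times that of Slc16a1 in WKY and 5.63 ± 0.714 times in SHR (SD, n = 4 each).

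Slc5a8 encodes SMCT1, the sodium-coupled carrier of butyrate and other monocarboxylates at the apical membrane. It was at 62.62, 32.65, 43.11 and 46.13 FPKM in WKY replicates 1 to 4, against 39.02, 49.61, 53.28 and 46.76 FPKM in SHR replicates 1 to 4. The 4 SHR values lay within the WKY range, whose ends were WKY replicate 2 and WKY replicate 1. Slc5a8 had a log2 fold change of 0.06 ± 0.17 (SE, adjusted p = 0.855), with an interval from -0.32 to 0.44. Slc16a1 was 4.05 ± 1.09 times the level of Slc5a8 in WKY and 3.45 ± 0.448 times in SHR.

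Among the other monocarboxylate carriers and related transport genes, 11 were tested: 2 fell, 1 rose and 8 showed no call. Of these 11, 7 had an unadjusted limma p under 0.05. Of the 13 with a row, tested or not, 5 passed in the authors' deposited table, where 15.3% of all genes did. Over all tested genes 7.48% were lower and 3.4% higher by limma, and with lists this short the counts say nothing particular about the list. The median log2 fold change of the 11 was -0.01, beside -0.07 for all tested genes. Slc16a7 encodes MCT2, a carrier of high affinity for monocarboxylates. It fell from 10.2 ± 1.86 to 4.42 ± 1.70 FPKM (SD, n = 4 each). On the log2 scale this was -1.10 ± 0.21 (SE, adjusted p = 0.00635), and all SHR values lay below all WKY values. Slc16a6, which in the liver is known for ketone body export in zebrafish, fell from 6.38 ± 1.08 to 3.38 ± 0.612 FPKM (adjusted p = 0.00604). Slc16a14, a family member of little known function, rose from 2.96 ± 0.660 to 4.85 ± 0.112 FPKM (adjusted p = 0.0143, and 0.0545 without WKY replicate 4). These 3 carriers were far below Slc16a1 in level.

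Emb encodes embigin, the chaperone that pairs with MCT2. Its WKY level was 2.82 ± 0.658 FPKM and its SHR level 1.72 ± 0.950 FPKM, which did not pass (adjusted p = 0.14), although it passed without SHR replicate 2 (adjusted p = 0.0286). Abcg2, an apical efflux pump that can carry butyrate out of the cell, had a mean of 126 ± 10.8 FPKM over WKY and 126 ± 14.6 FPKM over SHR libraries, with an interval of the log2 fold change from -0.26 to 0.25.

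Ffar2 encodes GPR43, a receptor for acetate, propionate and butyrate found on enteroendocrine cells, leukocytes and epithelium. It was at 2.51, 5.11, 6.66 and 3.92 FPKM in WKY replicates 1 to 4, against 2.85, 3.55, 2.01 and 1.12 FPKM in SHR replicates 1 to 4. WKY replicate 1 lay among the SHR values, and WKY replicate 3 was the highest library. The log2 fold change was -0.71 ± 0.27 (SE, adjusted p = 0.125, unadjusted p = 0.0258), with a 95% interval from -1.32 to -0.11. Without WKY replicate 1 it passed, at -0.92 (adjusted p = 0.0451). Libraries of a strain spread more for Ffar2 than for 96.8% of the tested genes (within-strain SD 0.479 on the log2 scale).

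Ffar2 did not pass, and its values are set here beside markers of other cell types. Of 7 enteroendocrine markers 2 fell, 0 rose and 5 did not pass, and their summed level was 251.6 to 855.0 FPKM in WKY and 179.6 to 274.8 FPKM in SHR, so that the strains overlapped. For T and natural killer cells, 4 of the 6 tested markers fell, 0 rose and 2 did not pass, beside 7.48% lower over all tested genes, with sums of 34.58 to 122.2 FPKM in WKY and 10.27 to 19.53 FPKM in SHR. WKY replicate 3, the highest for Ffar2, was also the highest for both sums. WKY replicate 2, next for Ffar2 at 5.11 FPKM, was the lowest WKY library for both sums (251.6 and 34.58 FPKM). Of the myeloid markers, Csf1r was at 0.76 FPKM or less in every library, Lyz2 at 2.14 to 18.42 FPKM, S100a9 at 2.54 to 8.74 FPKM, and Cd14, which epithelium can also express, rose (adjusted p = 0.00188). The part of these cells in the Ffar2 values was not tested.

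**Figure D2:**
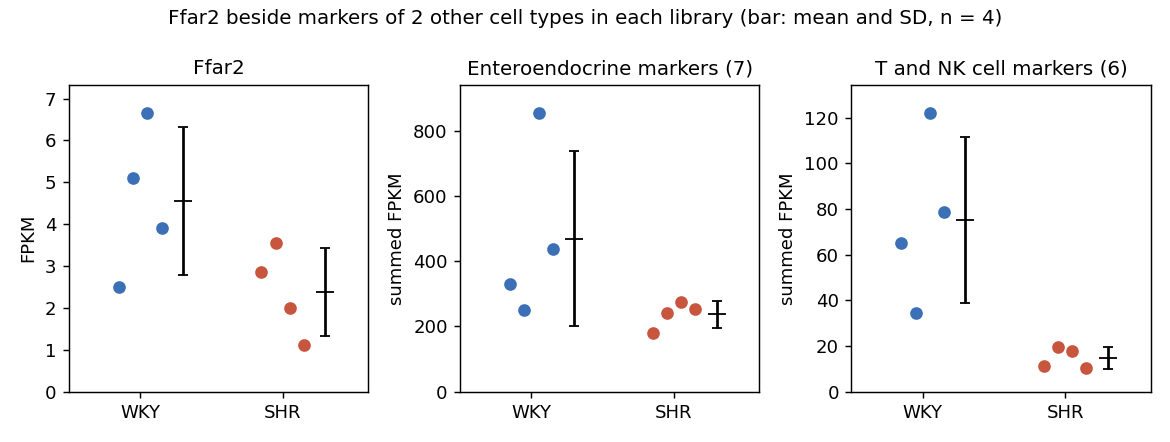
Ffar2 (FPKM, left), the summed FPKM of 7 enteroendocrine markers (middle) and of 6 T and natural killer cell markers (right), with a point per library and bars for the mean and SD of 4 libraries. WKY replicate 3 is the highest point in all panels, at 6.66, 855.0 and 122.2. WKY replicate 2 is next for Ffar2 (5.11) and the lowest WKY point in the other panels (251.6 and 34.58). The strains overlap in the first 2 panels and are apart in the third.

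Among other genes of metabolite sensing 6 were tested, of which 1 fell and 0 rose, beside 7.48% and 3.4% of all tested genes; their log2 fold changes had a median of 0.11. Arrb2, beta-arrestin 2, which binds activated receptors, fell from 4.76 ± 1.11 to 2.74 ± 0.182 FPKM (adjusted p = 0.0216). This call was lost without WKY replicate 1 (0.0593), WKY replicate 4 (0.0628) or SHR replicate 3 (0.0649). Ffar3, which shares ligands with Ffar2, was not analysed here. Of the 9 histone deacetylase genes tested, whose enzymes butyrate inhibits inside the cell, 0 passed limma's test, 2 had an unadjusted p under 0.05 and 0 passed in the authors' deposited table, where 15.3% of all genes did. Their median log2 fold change was -0.14.

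Before oxidation butyrate is joined to coenzyme A by acyl-CoA synthetases, and the only genes of that list with a row were those for acetate and other acids. Of 5 tested, 1 fell and 1 rose, which is too few to set against the 10.9% called over all tested genes. Acss1, the mitochondrial enzyme that activates acetate, fell from 69.2 ± 2.08 to 36.9 ± 4.32 FPKM (SD, n = 4 each). On the log2 scale this was -0.90 ± 0.11 (SE, adjusted p = 0.000253). It was at 66.99 to 72.01 FPKM in WKY and 30.82 to 40.7 FPKM in SHR, so the strains were far apart. Acss2, the cytosolic and nuclear counterpart, was at 82.17 to 92.87 FPKM in WKY and 86.92 to 97.68 FPKM in SHR and did not pass (adjusted p = 0.726). Acsf2, a synthetase for medium-chain acids, rose from 93.5 ± 9.19 to 122 ± 11.3 FPKM (adjusted p = 0.0451). That call was lost in all 8 fits without a library except the one without SHR replicate 4, with adjusted p from 0.0449 to 0.126.

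The list for oxidation of butyryl-CoA also holds genes of longer chains, namely Cpt1a, Cpt2 and Slc25a20 of the carnitine shuttle and Hadha and Hadhb of the trifunctional protein. Of its 15 genes, 0 passed limma's test, 1 had an unadjusted p under 0.05 (Cpt1a, 0.0416) and 0 passed in the authors' deposited table. Over all genes the shares were 10.9% by limma and 15.3% in the authors' table. With 15 genes the count says nothing particular about the list. The log2 fold changes ran from -0.18 to 0.29, the latter that of Cpt1a, with a median of -0.01. Acads, the short-chain acyl-CoA dehydrogenase that takes butyryl-CoA as its substrate, averaged 150 ± 14.6 FPKM over WKY and 147 ± 23.2 FPKM over SHR libraries, with an interval of the log2 fold change from -0.32 to 0.25. Acat1, the thiolase that splits or joins acetoacetyl-CoA, was at 143 ± 10.4 and 139 ± 10.4 FPKM (interval -0.26 to 0.19).

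Bdh1 (ENSRNOG00000001736) was at 87.19, 100.98, 78.21 and 93.81 FPKM in WKY replicates 1 to 4, against 44.17, 49.67, 46.85 and 47.81 FPKM in SHR replicates 1 to 4. All SHR libraries lay below all WKY libraries, as in 16.1% of the tested genes in either direction. The means were 90.0 ± 9.69 and 47.1 ± 2.29 FPKM (SD, n = 4 each), and the SHR level was 52.3% of the WKY level. On the log2 scale Bdh1 fell by 0.91 ± 0.11 (SE, limma adjusted p = 0.000186), with a 95% interval of the log2 fold change from -1.15 to -0.68. It passed in all 16 alternative settings, with adjusted p from 9.04e-11 to 0.00142. The authors' deposited table gives mean CPM of 180 in WKY and 96.2 in SHR, a log2 fold change of -0.91 and a q-value of 9.04e-11 for Bdh1.

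Oxct1, the transferase that starts the use of ketone bodies as fuel, was the only gene to pass of 6 examined in the ketone body list, and 0 rose, beside 10.9% called over all tested genes. The list's median log2 fold change was -0.09. Oxct1 was at 39.09, 45.63, 36.65 and 33.79 FPKM in WKY replicates 1 to 4, against 20.43, 25.44, 23.76 and 30.28 FPKM in SHR replicates 1 to 4, with the strains apart. Its log2 fold change was -0.62 ± 0.14 (SE, adjusted p = 0.012), and it passed in all 16 alternative settings. The ratio of Bdh1 to Oxct1 overlapped between strains (2.34 ± 0.295 in WKY, 1.92 ± 0.244 in SHR, SD, n = 4 each; two-sided exact permutation p = 0.0571, or 0.229 with Benjamini-Hochberg adjustment over the 4 ratios reported, where the smallest p that 4 against 4 libraries allow is 0.0286).

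**Figure D3:**
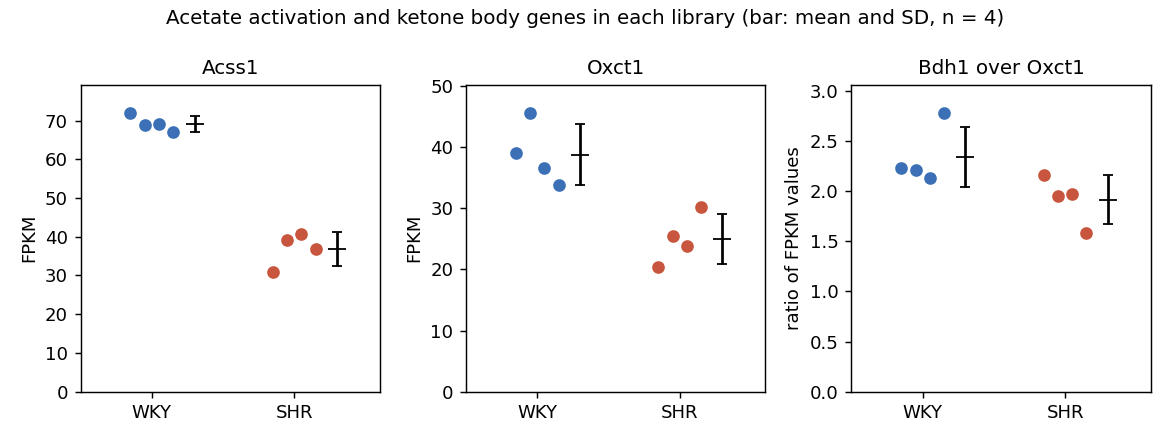
FPKM of Acss1 (left) and Oxct1 (middle) and the ratio of Bdh1 to Oxct1 FPKM within each library (right), with a point per library and bars for the mean and SD of 4 libraries; every axis starts at 0. Acss1 and Oxct1 are apart between strains, with the lowest WKY values at 66.99 and 33.79 and the highest SHR values at 40.7 and 30.28 FPKM, and the ratio overlaps.

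Lactate and pyruvate share the monocarboxylate carriers with butyrate. Of 11 tested genes of their handling, 0 passed limma's test and 3 had an unadjusted p under 0.05. Of the 12 with a row, tested or not, 1 passed in the authors' deposited table. Over all genes 10.9% passed limma's test and 15.3% passed in the authors' table. The median log2 fold change of the 11 was -0.22, beside -0.07 for all tested genes. Ldha, the lactate dehydrogenase subunit of glycolytic tissue, averaged 870 ± 82.0 FPKM over WKY and 854 ± 48.2 FPKM over SHR libraries (SD, n = 4 each).

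**Figure D4:**
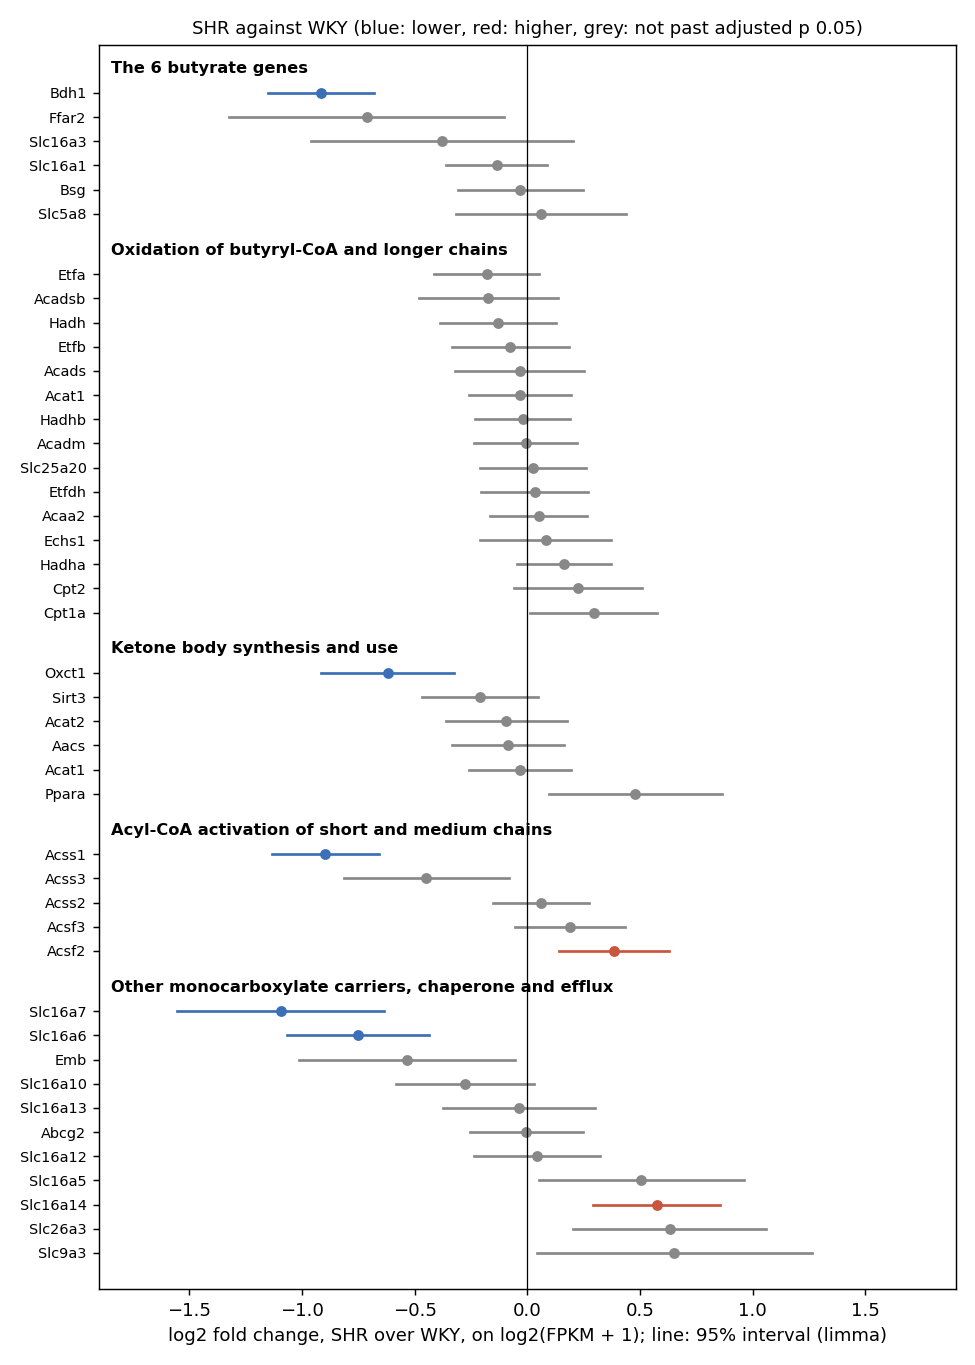
Log2 fold change of SHR over WKY on the log2(FPKM + 1) scale with its 95% interval from limma, for the 6 genes and 4 lists of related genes, each row a gene; blue marks lower and red higher at an adjusted p under 0.05, grey the rest. Bdh1, Oxct1, Acss1, Slc16a7 and Slc16a6 are blue, and all 15 genes of the list for oxidation of butyryl-CoA and longer chains are grey, between -0.18 and 0.29 (Cpt1a). Of all tested genes 10.9% were called.

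Among tested genes with a usual symbol, those with a pattern over the 8 libraries most like that of Bdh1 were Ddx59, Klhdc8a and Scd. The measure was the mean absolute difference of centred log2 values. Genes with no name or named by a LOC, RGD, AABR or AC identifier were left out. Ddx59 encodes an RNA helicase, and its difference from Bdh1 was 0.057, beside a median of 0.43 for all tested genes. The nearest genes lie under that median by selection. Ddx59 was at 2.42 to 3.23 FPKM in WKY and 0.86 to 1.03 FPKM in SHR, where adding 1 shrinks the log2 change. With a pseudocount of 0.1 its log2 fold change was -1.55, against -0.928 for Bdh1. Klhdc8a, a kelch-domain gene, was at 0.075, and Scd, a stearoyl-CoA desaturase, at 0.076.

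The labels name the black rat, Rattus rattus, while the Ensembl IDs in the tables are those of the brown rat, so the gene order used here may be that of another species than the one sequenced. In the RefSeq gene order of the black rat Bdh1 lies between Ppp1r2 and Dlg1 among tested genes, with Ncbp2 after Dlg1. Of 11 rows for the 5 tested genes on each side of Bdh1, 1 was called. That row was Ncbp2, a subunit of the nuclear cap-binding complex, named here after its values were seen. It fell from 87.0 ± 26.6 to 20.7 ± 2.34 FPKM (adjusted p = 2.58e-05) under ENSRNOG00000001746, while its other identifier did not pass (adjusted p = 0.643). Reads can be divided between copies, so the level of Ncbp2 is uncertain. The nearest neighbours Ppp1r2 (adjusted p = 0.23) and Dlg1 (adjusted p = 0.566) did not pass. Around the other 5 genes, 0 or 1 of 10 neighbours was called. Over all tested genes 10.9% were called, so these counts say nothing particular about the location of Bdh1 and the other genes. The order held only protein-coding genes with the same symbol in the RefSeq order and in the data. Genes named otherwise were left out, and whether any beside Bdh1 differed between strains was not tested.

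Counts over all genes moved with the scaling, 376 higher and 828 lower as deposited against 642 and 644 after quantile normalization and 541 and 714 after median centring. Bdh1 was at -0.85 and -0.87 on the log2 scale under those scalings. In fits without 1 library, between 215 and 583 genes were higher and between 499 and 1209 lower. The number of higher genes moved by over 1.5 times in the fits that left out WKY replicate 1 (249), WKY replicate 4 (221) or any of SHR replicates 1 (583), 2 (229) and 3 (215). The number of lower genes did so without WKY replicate 4 (506) or SHR replicate 3 (499).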

How the data were processed

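Poly(A)-selected RNA of 4 WKY and 4 SHR libraries was sequenced as directional paired ends, per the labels' protocols. The submitters' processing notes list FastQC, Trimmomatic and STAR. Sources used here do not state the build, the annotation, the counter or the authors' test. The deposited value per gene and library is taken as FPKM, inferred from the values: multiplied by a length per gene derived from the mean CPM columns, they sum to 982968 to 1017515 per library. The authors' mean CPM per strain (handled as a score), log2 fold change, p-value and q-value are named per the file headers. The other deposited tables repeat rows of this one, with 0 cells different.

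A gene was tested if 4 or more libraries reached 1 FPKM (11069 of 11762). Values were tested as log2(FPKM + 1) with limma 3.58.1 in R 4.3.3 (strain as the sole term, moderated variances with a trend, robust, two-sided), and p-values had Benjamini-Hochberg adjustment over all tested genes and a threshold of 0.05. This scale understates changes of low genes. The script was tested on simulated data. Reads per library cannot be recovered from values divided by gene length, so no counting error is given. No batch is named in the labels, and since strand use in counting is not stated, reads of overlapping genes may be mixed.

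The members and lists were chosen with earlier results of these data known. Named genes were all members, up to 4 called genes of each list with the lowest adjusted p, a fixed set of pathway genes, and the 3 genes most like a called member; a few other genes are named with values where a result turns on them. Of the symbols listed, those with no row were not analysed here, and a few with a row are not reported here. The ratios and the neighbours of each gene were added after seeing the data; neighbours come from the RefSeq table of Rrattus_CSIRO_v1, whose coordinates are not used. The alternatives were leaving out the filter, pseudocounts of 0.1 and 5, median centring, quantile normalization, a replicate block, plain empirical Bayes, each library left out in turn, and the authors' q-values. Figures were drawn with matplotlib 3.10.9.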

Additional observations from a re-analysis of the deposited data

Results flagged for a closer look

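In 40 groups of 4 libraries tested, 2 had a library far from the others, and chance flags about 1 group in 20. Acads was at 171.41 FPKM in WKY replicate 4, with the other WKY libraries between 140.9 and 145.2 FPKM. Klhdc8a was at 27.11 FPKM in WKY replicate 3, with the other WKY libraries between 33.01 and 33.7 FPKM. No group of the 6 butyrate genes was flagged.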

How the results depend on the processing

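Bdh1 kept its direction and its side of the threshold in all 16 alternative settings, with log2 fold changes from -0.98 to -0.86 when 1 library was left out. Slc16a1 (-0.18 to -0.10), Slc16a3 (-0.57 to -0.16) and Ffar2 (-0.92 to -0.51) kept their direction, and Ffar2 passed only without WKY replicate 1, when 2 of the 6 genes were called instead of 1. Bsg changed sign after quantile normalization (0.17), after median centring (0.015), in the authors' deposited table (0.0175) and without single libraries (-0.098 to 0.067), and Slc5a8 without single libraries (-0.09 to 0.22). The cause was not tested. With quantile normalization Abcg2, Acads and Acat1 turned to 0.0958, 0.0627 and 0.0751, with median centring to 0.0417, 0.0124 and 0.014, and in the authors' table Abcg2 and Acads to 0.0132 and 0.0092. Without single libraries Abcg2 ran from -0.077 to 0.039, Acads from -0.096 to 0.079 and Acat1 from -0.076 to 0.015. Higher genes numbered 376 as reported, 642 after quantile normalization and 675 in the authors' table, and 215 to 583 without a library; lower genes numbered 828, and 499 to 1209 without a library.

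The labels give no pairing of libraries by replicate number. Deviations of same-numbered WKY and SHR libraries correlated at -0.105, -0.039, 0.463 and -0.29 for numbers 1 to 4. The value for number 3 was the highest of any WKY and SHR pair, and not every library correlated best with its own number. So few correlations cannot decide whether the libraries are paired. With the replicate block 395 genes were higher and 917 lower, Bdh1 stayed called (-0.91), 7 rather than 3 genes of the other carriers were called, Emb passed (adjusted p = 0.0457), and Acsf2 did not (adjusted p = 0.0596). Depth is unknown, so low values such as those of Ffar2 carry a counting error that cannot be given.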
